A study of Gallus gallus with 8 samples.

Results

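The genes described here encode the fast-twitch proteins of the thin and thick filaments in chicken breast muscle, together with the calcium buffer parvalbumin. They were chosen by symbol. Of 9 symbols sought, ACTA1, TPM1, TNNT3, TNNI2, TNNC2, MYL1 and PVALB had a row in the authors' gene table, and these 7 were among the 10136 genes kept for testing out of 17108 deposited. MYLPF and MYBPC2 are not analysed here. The birds were 6-week-old Hubbard Flex females, a strain of broiler. A group of 4 birds had high and a group of 4 birds had low shear force of the pectoralis muscle, shear force being the force needed to cut the meat, and no bird received a treatment that the labels name. The question was whether expression in the breast differs with the toughness of its meat.

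In a striated muscle fibre, the thin filament is a chain of actin wrapped by tropomyosin and by the troponin complex, and the thick filament is built of myosin heavy chains that each carry light chains. Calcium released into the fibre binds troponin C, troponin I then lets go of actin, troponin T passes the movement on to tropomyosin, and myosin heads can attach and pull. Most of these proteins exist in fast, slow and cardiac forms made by separate genes, and the breast muscle of the chicken is known as a nearly pure fast muscle.

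The libraries held 6672776 to 7322205 expected counts in the high and 5564905 to 7319140 in the low shear force birds. Low shear force birds 1 and 3 stood apart from the other 6 on the first principal component. Mitochondrial genes took 9.87% to 12.03% of counts in the high and 6.30% to 15.2% in the low shear force birds. Values below are CPM, that is, counts scaled to a common library size by TMM, a method that takes most genes to be equal between libraries. Transcript lengths were not used here, so counts set side by side for different genes, as ranks or ratios, also carry the length of each.

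The fast filament genes took about the same part of the library in both groups. Together the 7 genes held 13.9%, 12.5%, 14.2% and 14.5% of all counts in high shear force birds 1 to 4, and 13.9%, 14.5%, 14.7% and 12.7% in low shear force birds 1 to 4. The means were 13.8% ± 0.896 and 13.96% ± 0.926 (SD, n = 4 each), a gap of -0.19 percentage points that is smaller than either SD. The groups overlapped, with high shear force bird 2 and low shear force bird 4 the lowest. ACTA1, TNNT3, MYL1, TPM1, TNNI2 and TNNC2 were all among the 23 genes with the highest mean count, while PVALB stood at place 5418 of 17108.

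No member passed the test. With edgeR (quasi-likelihood), 0 of the 7 members and 0 of 10136 genes reached an adjusted p under 0.05 (0%). At an unadjusted p under 0.05 stood 1 of the 7 members, PVALB, lower in the high shear force birds, against 12.8% of all genes in either direction and 4.91% in the lower one. DESeq2 called 1.21% of all genes at an adjusted p under 0.05 and none of the members. In 0 of 7 members did all birds of one group lie beyond all birds of the other, against 6.18% of all genes. The log2 fold change, high over low shear force, was above 0 in 3 of 7 members, against 50.8% of all genes, and the members' median was -0.0033, against 0.0064 over all genes.

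**Figure D1:**
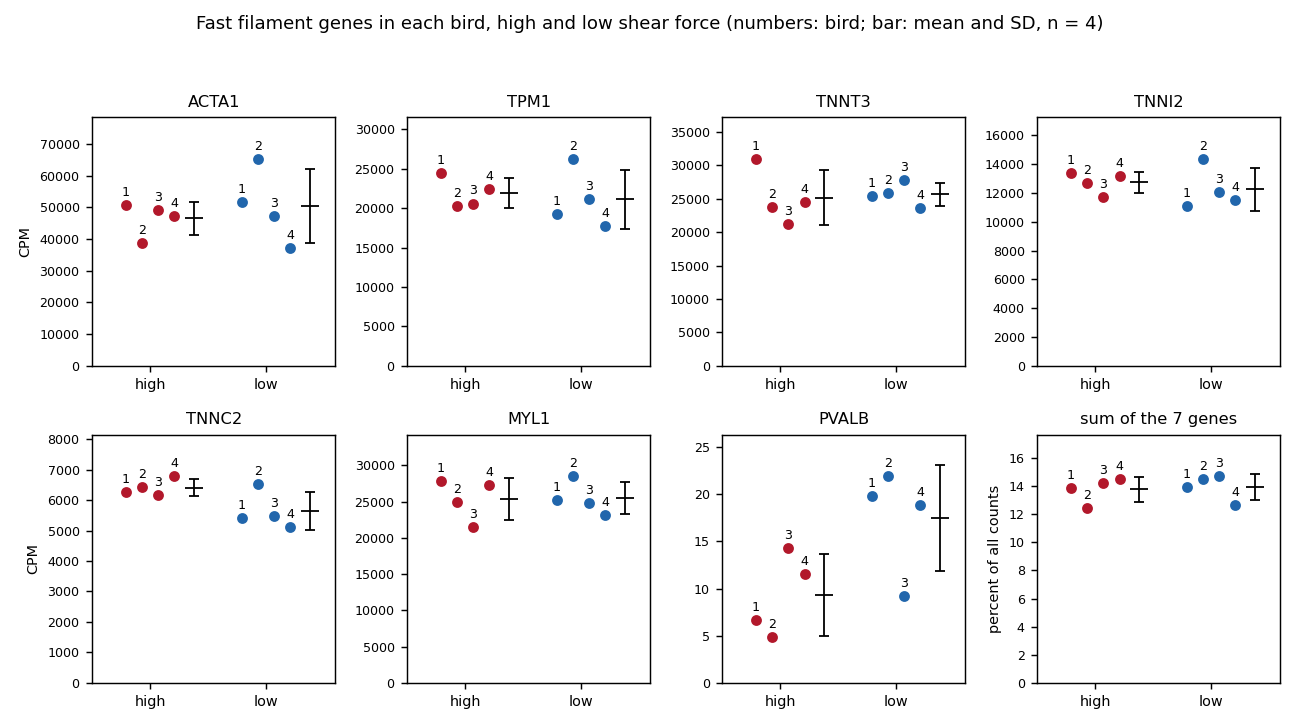
CPM of each fast filament gene in every bird, and the percent of all counts that the 7 genes held together (vertical axes from 0). High shear force birds are on the left and low shear force birds on the right of each panel, numbers give the bird, and bars give the mean and SD of 4 birds. The groups overlap in all 8 panels, and PVALB is the one gene whose low shear force mean (17.5 CPM) is far above the high shear force mean (9.36 CPM).

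Skeletal alpha-actin, the main chain of the thin filament, is encoded by ACTA1 (chromosome 3, 39337939 to 39339803 in the galGal4 coordinates of the authors' table). It had 50594, 38888, 49227 and 47273 CPM in high shear force birds 1 to 4, against 51839, 65333, 47190 and 37214 CPM in low shear force birds 1 to 4. The low shear force birds held both the highest and the lowest value, so the high shear force range lay within theirs. The log2 fold change was -0.12 ± 0.21 (SE), with a 95% interval of -0.57 to 0.34 and an edgeR adjusted p of 0.839. All 8 ACTA1 counts carried decimals, as did all 8 of ACTC1, the cardiac actin, so reads of both were shared with other features in the authors' counting and their levels are uncertain. Which features shared them was not tested.

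Tropomyosin 1, which lies along actin and covers the myosin sites at rest, is encoded by TPM1 (chromosome 10, 3667602 to 3687521). Its values were 24452, 20294, 20590 and 22471 CPM in high shear force birds 1 to 4 and 19306, 26267, 21174 and 17681 CPM in low shear force birds 1 to 4. Low shear force bird 2 was again the highest and low shear force bird 4 the lowest. For TPM1 the log2 fold change was 0.057 ± 0.18 (SE), with a 95% interval of -0.35 to 0.46 and an edgeR adjusted p of 0.913. Read as a share of the summed counts of the 7 members, which needs no scaling of libraries, TPM1 took 15.8% to 15.98% in the high and 13.96% to 15.7% in the low shear force birds. On this measure the 4 high shear force birds lay close together and above all 4 low shear force birds, by a narrow margin. That margin was 15.78% in high shear force bird 3 against 15.74% in low shear force bird 2. TPM1 was alone among the 7 members in having groups apart on this measure, on which other genes were not read. In CPM, where 6.18% of all genes had groups apart, the TPM1 groups overlapped. The summed counts of the 7 members were 30.6% to 39.1% ACTA1, whose level is uncertain. No test was made of the TPM1 share, which was picked out after its values were seen.

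Of the troponin genes, TNNC2 encodes the fast calcium sensor and had the largest positive difference of the 7 members. It stood at 6271, 6426, 6149 and 6789 CPM in high shear force birds 1 to 4, against 5409, 6536, 5483 and 5121 CPM in low shear force birds 1 to 4. All 4 high shear force birds were above low shear force birds 1, 3 and 4, and low shear force bird 2 lay inside the high shear force range. The means of 6409 ± 278 and 5637 ± 619 CPM (SD, n = 4 each) gave a log2 fold change of 0.18 ± 0.16 (SE), with a 95% interval of -0.16 to 0.53 and an edgeR adjusted p of 0.641. TNNC2 (chromosome 20, 10856323 to 10858120) was also the one filament gene whose fold change kept its sign with each bird left out in turn, between 0.13 and 0.24, and PVALB, the calcium buffer, kept its sign as well. Without low shear force birds 1 and 3 the value was 0.103.

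TNNI2 encodes the fast inhibitory subunit that holds actin back at rest. It had 13403, 12678, 11749 and 13191 CPM in high shear force birds 1 to 4 and 11068, 14377, 12062 and 11509 CPM in low shear force birds 1 to 4. Its highest bird was 1.3 times its lowest. For TNNI2 the fold change on the log2 scale was 0.058 ± 0.17 (SE), with a 95% interval of -0.31 to 0.42 and an edgeR adjusted p of 0.902.

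TNNT3, the fast subunit that ties the complex to tropomyosin, had 30980, 23705, 21282 and 24555 CPM in high shear force birds 1 to 4, against 25353, 25854, 27780 and 23642 CPM in low shear force birds 1 to 4. Here the high shear force birds held the highest and the lowest value, in birds 1 and 3. The log2 fold change was -0.03 ± 0.18 (SE), with a 95% interval of -0.42 to 0.36 and an edgeR adjusted p of 0.958. TNNT3 (chromosome 5, 13389730 to 13416288) and TNNI2 (chromosome 5, 13473898 to 13476632) lie 57609 bases apart in the authors' table. A pairing of a troponin T with a troponin I gene is known from other vertebrates, and the same table has TNNI1 and TNNT2 11726 bases apart on chromosome 26.

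Counts of one troponin gene over another within a bird need no library scaling. TNNC2 counts were 0.468, 0.507, 0.523 and 0.515 times the TNNI2 counts in high shear force birds 1 to 4, and 0.489, 0.455, 0.455 and 0.445 times in low shear force birds 1 to 4. High shear force birds 2, 3 and 4 were above all low shear force birds on this ratio and high shear force bird 1 was not. As a share of the 7 members' summed counts, TNNC2 took 4.08% to 5.06% in the high and 3.91% to 4.32% in the low shear force birds, again with an overlap through high shear force bird 1. These ratios are given as a description, with no test.

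The alkali light chain of fast myosin, which wraps the neck of the myosin head, is encoded by MYL1 (chromosome 7, 2739204 to 2756780). It had 27908, 24986, 21491 and 27286 CPM in high shear force birds 1 to 4 and 25278, 28537, 24866 and 23220 CPM in low shear force birds 1 to 4. The group means were 25418 ± 2904 and 25475 ± 2226 CPM (SD, n = 4 each), and the groups overlapped throughout. For MYL1 the log2 fold change was -0.0033 ± 0.17 (SE), with a 95% interval of -0.38 to 0.38 and an edgeR adjusted p of 0.996.

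PVALB encodes parvalbumin, a calcium buffer that speeds relaxation of fast fibres in other vertebrates. Its level was low, with 42, 35, 114 and 79 counts in high shear force birds 1 to 4 and 129, 125, 72 and 112 counts in low shear force birds 1 to 4. In CPM these were 6.71, 4.87, 14.3 and 11.6 in high shear force birds 1 to 4, against 19.8, 21.9, 9.26 and 18.8 in low shear force birds 1 to 4. Low shear force birds 1, 2 and 4 were above all high shear force birds, and low shear force bird 3 lay among them.

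The means of 9.36 ± 4.34 and 17.5 ± 5.62 CPM for PVALB (SD, n = 4 each) gave a log2 fold change of -0.89 ± 0.35 (SE), with a 95% interval of -1.66 to -0.12. The unadjusted edgeR p was 0.0278 and the adjusted p 0.347, so the difference did not pass over all genes, nor did it in DESeq2, at an adjusted p of 0.227. In the authors' deposited table, turned here to run high over low, PVALB has a log2 fold change of -0.91 with an adjusted p of 0.236 from edgeR, and -0.47 with an adjusted p of 0.1997 from DESeq2. With 1 bird left out the value ran from -1.18 to -0.67 and the smallest adjusted p was 0.272. The unadjusted p passed 0.05, up to 0.072, when any one of high shear force birds 1 and 2 or low shear force birds 1, 2 and 4 was left out. PVALB (chromosome 14, 1039017 to 1043904) overlapped no other gene of the authors' table, and neither did any other member.

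**Figure D2:**
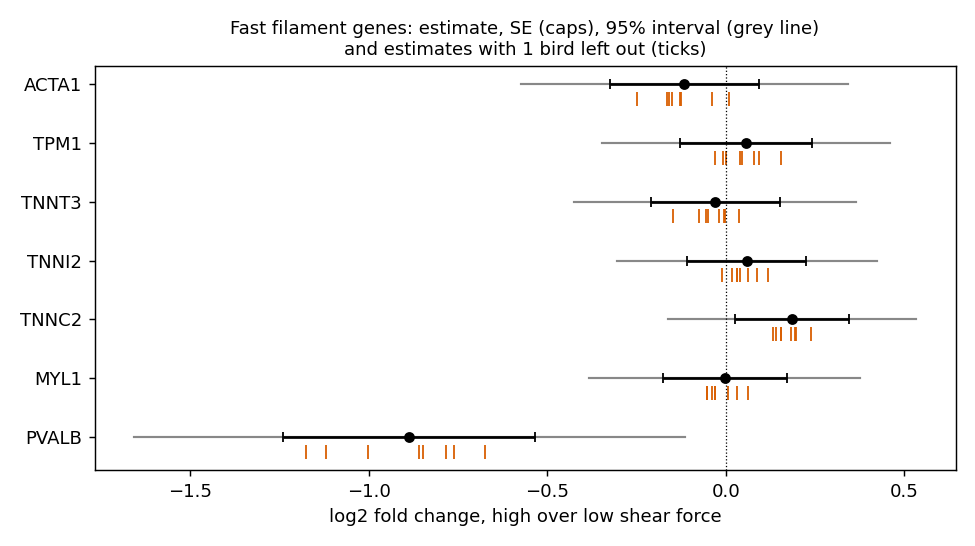
Log2 fold change, high over low shear force, of each member (dot), with its SE (caps), its 95% interval (grey line) and the 8 values with 1 bird left out (ticks). The intervals of ACTA1, TPM1, TNNT3, TNNI2, TNNC2 and MYL1 include 0 and reach no further than -0.57 and 0.53, while PVALB lies at -0.89 with an interval of -1.66 to -0.12.

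The coefficient of variation over 4 birds was 4.33% to 16.5% in the high and 6.64% to 23.2% in the low shear force birds for these 6, and 46.4% and 32.2% for PVALB. The median over all kept genes was 19.1% in the high and 23.0% in the low shear force birds. Over the 28 genes with a mean log2 CPM of at least 12, which include these 6, it was 16.5% and 19.6%. ACTA1, at 23.2% in the low shear force birds, lay above both medians of that group. The 95% intervals of the 6, each taken for its gene alone, reached down to -0.57 (ACTA1) and up to 0.53 (TNNC2) on the log2 scale at this number of birds. Low shear force bird 2 was the highest of all 8 birds in ACTA1, TPM1, TNNI2, MYL1 and PVALB on the CPM scale. That library had the smallest TMM factor, 0.871, where the others had 0.906 to 1.09, and as a percent of its raw counts it was the highest bird in ACTA1 alone, at 5.68%.

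Transcripts showed how each gene's count was made up. TPM1, TNNT3 and MYL1 had more than 1 transcript in the tables. The transcripts of each summed to the gene's count within 0.01. None of the 10362 transcripts tested passed edgeR's quasi-likelihood test after adjustment (0%), and of the 11 transcripts of the members that of PVALB alone, in the fit on group only, had an unadjusted p under 0.05, against 12.4% of all transcripts. DESeq2 called 1.22% of all transcripts and none of these 11. The groups overlapped in all 11, where 6.16% of all transcripts had groups apart. The files do not say which transcript encodes which known protein form, and the shares are the authors' estimates of reads that transcripts have in common.

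MYL1 is known to give a long and a short light chain from separate start sites. MYL1-202 made up 30.5%, 20.8%, 30.1% and 22.3% of the gene's counts in high shear force birds 1 to 4, against 30.4%, 24.3%, 30.3% and 22.99% in low shear force birds 1 to 4, and MYL1-201 made up the rest. The groups overlapped, and the share of MYL1-201 averaged 74.1% ± 5.1 and 73.0% ± 3.89 (SD, n = 4 each; exact permutation p = 0.6, 2-sided, 70 assignments of birds). Within each group, birds 1 and 3 lay near 30% and birds 2 and 4 at 20.8% to 24.3%, with no bird between.

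TPM1 had 3 transcripts. TPM1-203 was the main one, with 65.5%, 67.7%, 62.9% and 68.1% of the gene's counts in high shear force birds 1 to 4 and 59.5%, 66.4%, 59.3% and 67.2% in low shear force birds 1 to 4. TPM1-201 held 32.6%, 28.7%, 35.3% and 27.8% in high shear force birds 1 to 4 and 39.3%, 31.9%, 39.7% and 29.3% in low shear force birds 1 to 4. Birds 1 and 3 of each group were thus above birds 2 and 4 of each group here too, by a narrow margin. The exact permutation p between the groups was 0.257 for either transcript.

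TPM1-202, the minor transcript, had the largest log2 fold change in CPM of the 10 transcripts that remain when PVALB is set aside. It held 1.904%, 3.61%, 1.796% and 4.11% of TPM1 counts in high shear force birds 1 to 4, against 1.202%, 1.697%, 1.022% and 3.499% in low shear force birds 1 to 4. High shear force birds 2 and 4 and low shear force bird 4 were the high ones, so the groups overlapped (exact permutation p = 0.171, where 4 against 4 birds cannot go below 0.0286). In CPM its log2 fold change was 0.72 ± 0.39 (SE), with a 95% interval of -0.14 to 1.58 and an edgeR adjusted p of 0.463, and it was 0.196 without low shear force birds 1 and 3. Leaving out high shear force bird 4 gave 0.44, the smallest value with 1 bird removed, and leaving out low shear force bird 4 gave 1.05, the largest. Tropomyosin 1 is also made by smooth muscle and other cells. Beside this value, TPM4, a tropomyosin of non-muscle cells, had 18.5, 31.0, 28.9 and 26.5 CPM in high shear force birds 1 to 4 and 11.8, 16.5, 11.4 and 19.7 CPM in low shear force birds 1 to 4. Whether such cells add to TPM1-202 was not tested.

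TNNT3 is known for extensive alternative splicing. TNNT3-201 held 29.0%, 26.2%, 26.1% and 25.3% of the gene's counts in high shear force birds 1 to 4 and 26.5%, 24.5%, 23.2% and 24.4% in low shear force birds 1 to 4, with TNNT3-202 as the rest. The high shear force birds were higher on average, and low shear force bird 1 lay among them. The difference in the share of TNNT3-202 was -1.99 percentage points (exact permutation p = 0.114). Of the 5 transcript shares tested in these 3 genes, none had an exact permutation p under 0.05, and the smallest adjusted over the 5 was 0.321.

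**Figure D3:**
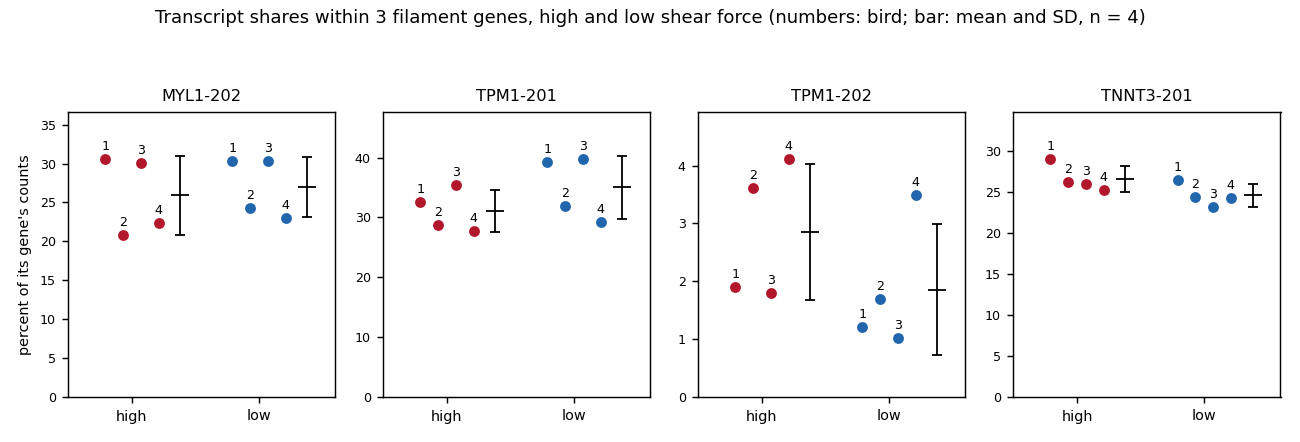
Percent of a gene's counts held by MYL1-202, TPM1-201, TPM1-202 and TNNT3-201 in each bird (vertical axes from 0), high shear force birds left and low shear force birds right, with numbers for the bird and bars for the mean and SD of 4 birds. MYL1-202 lies at 30.1% to 30.5% in birds 1 and 3 of both groups and at 20.8% to 24.3% in birds 2 and 4.

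Slow, cardiac and embryonic counterparts of the members were read as a check on the fibre type. Of 18 such symbols sought, 13 had a row, in 14 genes, since 2 genes carry the symbol MYL2. The slow troponin I gene TNNI1 had 6.39 to 15.9 CPM in the high and 8.23 to 28.7 CPM in the low shear force birds, and the cardiac troponin T gene TNNT2 had 27.2 to 51.7 and 27.8 to 90.2 CPM. TPM3, the slow tropomyosin, had 38.6 to 60.96 and 29.8 to 97.3 CPM, and MYH7B, a slow-type heavy chain, 6.23 to 11.8 and 3.84 to 12.1 CPM. Counts of TNNI2 were thus 738 to 2099 times those of TNNI1 in the high and 385 to 1398 times in the low shear force birds, with no correction for length. Among the 14, ACTC1 had 341 to 968 CPM over all 8 birds, MYBPH 461 to 984 CPM, MYBPC1 43.7 to 250.5 CPM and the higher MYL2 gene 194 to 276 CPM. The symbols TNNT1, MYH7 and MYL3, 3 of the slow fibre markers, had no row.

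TNNC1 is named for the slow and cardiac troponin C. It had 5892, 11218, 7041 and 11728 CPM in high shear force birds 1 to 4 and 6817, 11116, 8017 and 9376 CPM in low shear force birds 1 to 4. Counts of TNNC2 were 1.064, 0.573, 0.873 and 0.579 times those of TNNC1 in high shear force birds 1 to 4 and 0.794, 0.588, 0.684 and 0.546 times in low shear force birds 1 to 4, without correction for length. TNNC1 had a log2 fold change of 0.022 ± 0.25 (SE), with an edgeR adjusted p of 0.981. Birds 2 and 4 of each group were above birds 1 and 3 of each group, the same 4 birds that had the small MYL1-202 shares. All TNNC1 counts were whole numbers, as were those of TNNC2.

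The myosin heavy chains carry the light chain MYL1, and their symbols in this build have to be read with care. The gene with the symbol MYH6, which names a cardiac heavy chain, lies on chromosome 18 (538724 to 561401) inside the span of MYH2 and beside MYH3 genes, and had 47836 to 71072 CPM in the high and 51284 to 71434 CPM in the low shear force birds. Its log2 fold change was -0.15 ± 0.20 (SE; edgeR adjusted p = 0.773). The counts of MYH2, of both genes with the symbol MYH3 and of MYH6 carried decimals in all 8 birds, and those of MYH1 in 87.5% of birds. Reads of these genes were thus shared with other features in the authors' counting, which features was not tested, and single values, MYH1 included, are uncertain. MYH1 (chromosome 18, 381895 to 399588) had 4973, 1973, 4156 and 2072 CPM in high shear force birds 1 to 4, against 12461, 2426, 8556 and 2047 CPM in low shear force birds 1 to 4. Birds 1 and 3 of each group were again above birds 2 and 4 of each group, and the difference between the groups, -0.95 ± 0.57 (log2, SE; edgeR adjusted p = 0.496), was -0.41 without low shear force bird 1 and turned to 0.53 without both low shear force birds 1 and 3.

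The labels name no batch that sets birds 1 and 3 apart from birds 2 and 4, and whether one exists was not tested. For the pattern in MYL1-202, TPM1-201, TNNC1 and MYH1 these birds were seen to differ after the values were read, and no test was made.

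MYH15, a myosin heavy chain, was the counterpart with the smallest unadjusted p. It had 11.02, 6.67, 15.8 and 10.8 CPM in high shear force birds 1 to 4, against 41.6, 18.95, 29.4 and 25.4 CPM in low shear force birds 1 to 4, with no overlap. For MYH15 the log2 fold change was -1.38 ± 0.29 (SE), with an edgeR adjusted p of 0.118, while DESeq2 called it at an adjusted p of 0.00151. MYL4, the embryonic and atrial alkali light chain, had 5.43 to 9.52 CPM in the high and 3.07 to 6.05 CPM in the low shear force birds. Its fold change was 0.81 ± 0.28 (log2, SE), and edgeR gave an adjusted p of 0.309. MYH15 and MYL4 were the 2 of 14 counterparts with an unadjusted p under 0.05, 1 lower and 1 higher, a share of 14.3% against 12.8% of all genes.

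**Figure D4:**
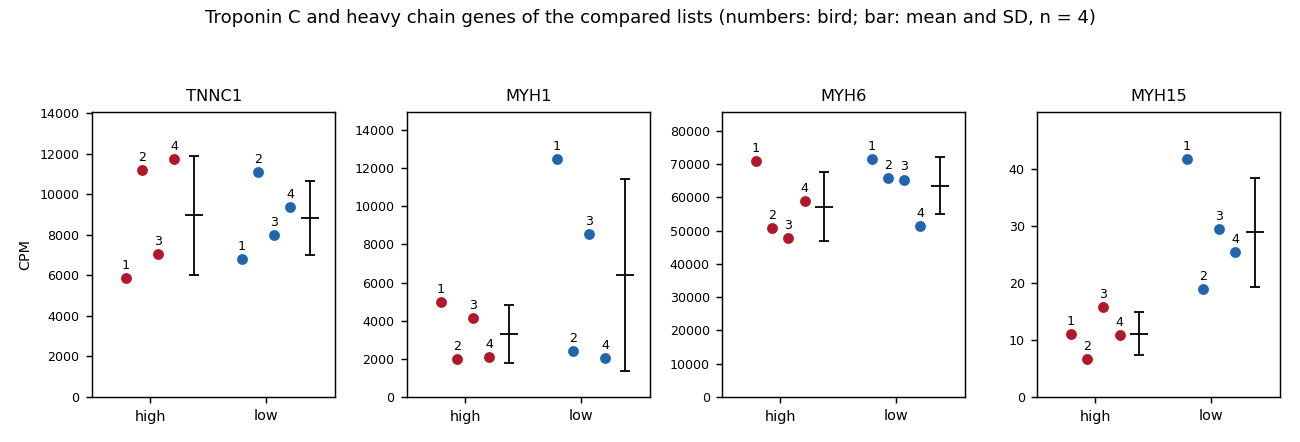
CPM of TNNC1, MYH1, MYH6 and MYH15 in each bird (vertical axes from 0), high shear force birds left and low shear force birds right, with numbers for the bird and bars for the mean and SD of 4 birds. In TNNC1 birds 2 and 4 lie at 9376 to 11728 CPM and birds 1 and 3 at 5892 to 8017 CPM in both groups together. MYH15 is the one panel with groups apart.

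Other genes of the fibre were read from lists, by symbol. Of 29 genes of the Z-disc, M-band and giant filaments with a row, 8 had a positive and 21 a negative log2 fold change, with a median of -0.18, but without low shear force birds 1 and 3 the counts were 16 and 13 and the median 0.023. An unadjusted p under 0.05 was found for 3 of these, all lower in the high shear force birds, against 4.91% of all genes. They were MYOM3, an M-band protein, at -0.82 ± 0.30 (SE), and HSP90AA1 and UNC45B, chaperones of myosin folding, at -0.49 ± 0.18 and -0.45 ± 0.18 (SE). LMOD3, which seeds thin filaments, stood at -0.33 ± 0.16 (SE). None passed the edgeR test over all genes, with adjusted p-values of 0.332 to 0.413 for these 4. HSP90AA1 was 535 to 623 CPM in the high and 669 to 1100 CPM in the low shear force birds, with no overlap.

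Of 12 genes of calcium release and uptake 9 were negative, with a median of -0.14, but without low shear force birds 1 and 3 only 3 were negative and the median was 0.112. With all birds 1 of the 12 had an unadjusted p under 0.05, against 12.8% of all genes. That was RYR3, a calcium release channel, with 613, 534, 584 and 432 CPM in high shear force birds 1 to 4 and 1318, 623, 1443 and 558 CPM in low shear force birds 1 to 4. Low shear force birds 1 and 3, which stand apart over all genes, were the high ones. JPH1, which joins the surface and store membranes, stood at -0.60 ± 0.28 (SE), with 603 CPM in low shear force bird 3 and 496 CPM in low shear force bird 1 as its highest values. Without these birds RYR3 stood at -0.16 and JPH1 at -0.045. ATP2A2, the slow and cardiac calcium pump, stood at -0.27 ± 0.15 and JSRP1, a protein of the junctional store membrane, at 0.21 ± 0.13 (SE). Adjusted p-values from edgeR were 0.313 to 0.504 for these 4.

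Of 18 symbols of glycolytic and related enzymes of the fibre sought, ALDOA, CKM, ENO3, PGAM2, PKM2 and PYGM had no row. The 12 enzymes with a row split evenly, 6 positive and 6 negative, with a median of 0.0035 and none at an unadjusted p under 0.05. AK1, adenylate kinase of muscle, stood at 0.32 ± 0.17 (SE), PGM1 at -0.22 ± 0.18 (SE), GAPDH at 0.18 ± 0.23 (SE) and ALDOC at 0.13 ± 0.18 (SE), with edgeR adjusted p-values of 0.451 to 0.785. Of 17 muscle transcription factors 11 were negative, with a median of -0.19, and without low shear force birds 1 and 3 there were 9, with a median of -0.058. NFATC1, a calcium-dependent factor linked to slow fibres in mammals, had the one unadjusted p under 0.05 among the 17, against 12.8% of all genes, at -0.74 ± 0.23 (SE). It had 19.5 to 28.6 CPM in the high and 25.7 to 56.5 CPM in the low shear force birds, with an edgeR adjusted p of 0.269. MYF5, a myogenic factor, stood at 0.54 ± 0.25, TEAD1 at -0.85 ± 0.49 and EYA1 at -0.44 ± 0.26 (SE), with edgeR adjusted p-values of 0.397 to 0.487. TEAD1 had 21.7 and 20.8 CPM in low shear force birds 1 and 3, where birds 2 and 4 of that group had 3.86 and 5.54 CPM, and its value was 0.59 without birds 1 and 3. Of the 4 kept heavy chain genes with fast or embryonic symbols, 3 were negative with a median of -0.199. These 4 were chosen by symbol and summed to 4283 to 9150 CPM in the high and 3946 to 17180 CPM in the low shear force birds. MYH6, at 47836 to 71434 CPM over all birds, was counted with the counterparts instead. When low shear force birds 1 and 3 were left out all 4 were positive, with a median of 0.405.

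Markers of other cells in the muscle were read beside the filament genes. In whole muscle, fewer cells of a type and less RNA per cell cannot be told apart. All 10 fibroblast genes were positive, with a median of 0.54 and 6 at an unadjusted p under 0.05, against 7.92% of all genes higher at that p. Their summed level was 4173 to 5684 CPM in the high and 2955 to 3760 CPM in the low shear force birds. The smooth muscle list had 9 of 10 positive with a median of 0.71 and 7 at that p, at 1127 to 1452 and 1114 to 1352 CPM. Its summed levels thus overlapped. Its genes of smallest p, TAGLN, MYLK, TPM4 and RGS5, averaged 8.34, 18.5, 26.2 and 208 CPM in the high shear force birds. In the low shear force birds they averaged 2.71, 10.5, 14.9 and 115 CPM, so most of each sum lay in other genes. ACTA2 and CNN1 had no row.

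All 8 endothelial genes were positive with a median of 0.599 and 4 at that p, at 263 to 494 CPM in the high and 221 to 374 CPM in the low shear force birds. The 4 erythrocyte genes had a median of 1.91 and 3 at that p, at 273 to 867 and 194 to 310 CPM, and ALAS2 had no row. Much of these sums was CA2, the 1 of the 4 not at that p. CA2 had 115 to 488 and 137 to 226 CPM, with groups that overlapped and a log2 fold change of 0.67 ± 0.36 (SE). Without high shear force bird 2, HBB moved to 1.19, HBAA to 1.24 and HBAD to 1.24, against 1.88, 1.94 and 2.17 with all birds. Of 4 adipocyte genes 3 were positive, with a median of 0.46 and 1 at that p (ADIPOQ turned to -0.15 without low shear force birds 1 and 3), at 205 to 297 and 120 to 275 CPM. Without low shear force birds 1 and 3 the medians were 0.645 (smooth muscle), 0.518 (fibroblast), 0.298 (endothelial), 1.56 (erythrocyte) and 0.243 (adipocyte). No gene of these lists was called by the edgeR test over all genes. DESeq2, which called 1.21% of all genes, called 8 of them, all higher in the high shear force birds. They were TAGLN and MYLK of the 10 smooth muscle genes and COL6A1 and POSTN of the 10 fibroblast genes. HBB, HBAA and HBAD of the 4 erythrocyte genes and PLIN1 of the 4 adipocyte genes were the rest, with none of the 8 endothelial genes. DESeq2 adjusted p-values of these calls were 0.00043 to 0.036. The part of these cell types in the member values was not tested.

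**Figure D5:**
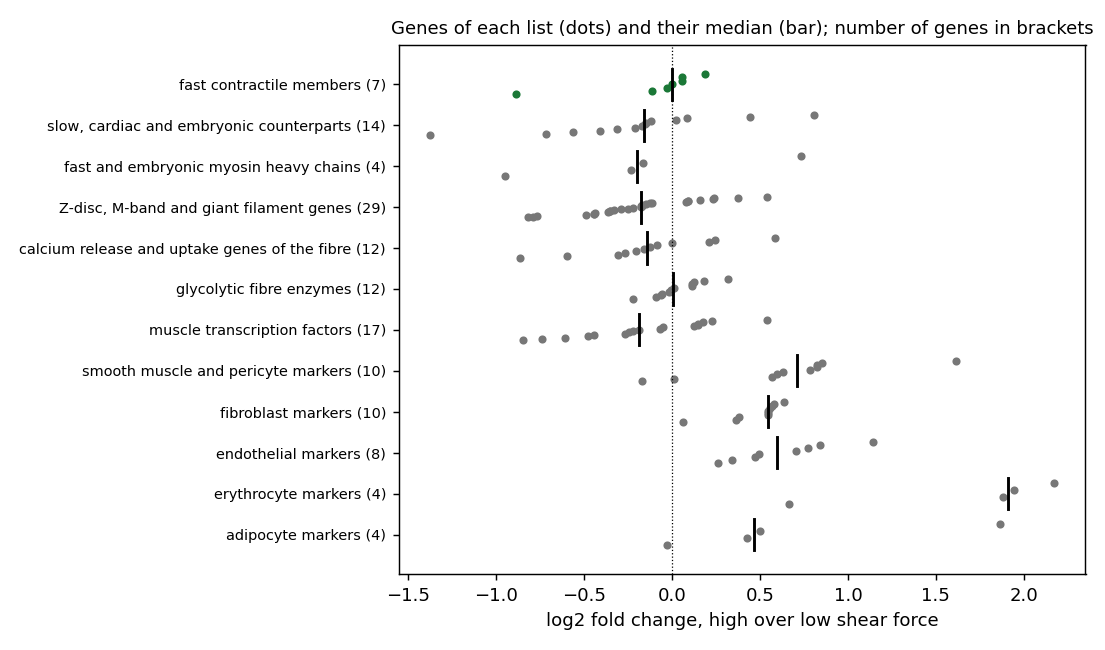
Log2 fold change, high over low shear force, of each gene (dot) in the fast filament list (top) and in the other lists, with the median of each list as a bar and its number of genes in brackets. The fast filament median is at -0.0033 and PVALB is its one distant gene. The other fibre lists have medians between -0.199 and 0.0035 (leaving out low shear force birds 1 and 3, between -0.076 and 0.405). The lists of other cell types have medians between 0.46 and 1.91 (leaving out the same birds, between 0.243 and 1.56).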

How the data were processed

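The authors deposited expected counts, estimated reads that need not be whole, per Ensembl gene and transcript. Per the submitters' processing notes the tools included RSEM, with TopHat and Bowtie2, the comparison tools Cuffdiff, DESeq2 and edgeR, and the build galGal4, and no version or strand setting is given in the sources used here. The series' design text mentions technical repetitions, and 1 column per bird was deposited. A further pair of deposited tables holds the authors' log2 fold changes and p-values. Their sign was opposite to the counts in 1195 of 1195 genes checked and was turned here.

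Counts were rounded and filtered with filterByExpr, which kept 10136 genes and 10362 transcripts, scaled by TMM and tested in edgeR 4.0.16 (quasi-likelihood, robust, group only, R 4.3.3), with Benjamini-Hochberg adjustment over the whole table at 0.05. CPM use the TMM-scaled library, and intervals for fold changes use 95%. Transcript shares were tested by exact permutation (scipy 1.17.1). DESeq2 1.42.0 and limma 3.58.1 (voom) served as alternatives, with other scalings, no filter, a block and left-out birds.

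The gene fit was tested on simulated data made from these libraries (9966 genes). There it found 64 of 100 genes given a log2 change of 1 and 91 of 100 given 2. It made 170 calls, of which 15 were false. The simulated counts were drawn separately for each gene, without the difference that sets low shear force birds 1 and 3 apart. These rates therefore need not hold for the real birds. There edgeR called 0 genes, although HBAD stood at 2.17 and TAGLN at 1.61 on the log2 scale. Members and lists were chosen with earlier results of these data known. All members are named. Other lists are named by up to 4 genes of smallest p, with up to 4 of highest level for counterparts and heavy chains. TNNI1, TPM3, MYH7B, MYL2, TPM4, C11ORF89 and LSP1 were named after their values were seen. The labels number the samples within a group and do not state that each is a different bird, as the wording here takes it, so p-values measure the spread between these samples. No pair of libraries in a group agreed within sampling noise. Fold changes above 0 mean higher in the high shear force birds.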

Additional observations from a re-analysis of the deposited data

Results flagged for a closer look

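In 9 readings a single bird lay far from the other 3 birds of their group, out of 150 groups of 4 birds checked, and chance alone sets apart about 1 in 20 groups. Among the filament genes, low shear force bird 2 stood out in MYL1-201 at 21548 CPM, and low shear force bird 4 in the TNNC2 share of the members' sum at 4.32%. Among counterparts and heavy chains, high shear force bird 1 stood out in MYBPC1, a slow-type myosin binding protein, at 244 CPM. The same bird stood out in the MYH3 gene of higher level at 3383 CPM. Low shear force bird 2 stood out in ACTC1 at 396 CPM and in the second MYH3 gene at 387 CPM. High shear force bird 2 stood out in the globin genes HBB, HBAA and HBAD at 266, 246 and 98.4 CPM.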

How the results depend on the processing

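Genes called at an adjusted p under 0.05 numbered 0 in edgeR, 7 without a filter, 1 with the replicate block and 123 in DESeq2, and 0 to 7 with 1 bird left out (3 when bird 1 of the high group was removed, and 7 or 1 when bird 2 or bird 4 of the low group was). Transcripts called numbered 0, 126 in DESeq2, 3 without low shear force birds 1 and 3, and 0 to 3 with 1 bird left out (3 without low shear force bird 2). No member was among these calls. The labels do not state that the replicate numbers pair the birds. Same-numbered deviations over the kept genes correlated at 0.0141, -0.0032, 0.205 and 0.318, and only bird 4 of the high group correlated best with its own number. These correlations cannot decide whether the numbers mark a batch. With the block the unadjusted edgeR p of PVALB was 0.0638, and that of TPM1-202 was 0.000517 (adjusted 0.114).

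Without low shear force birds 1 and 3, which stand apart, these log2 fold changes of members and their transcripts took the other sign: TPM1 (-0.035), TNNI2 (-0.054), MYL1-201 (-0.099), MYL1-202 (0.066), TNNI2-201 (-0.054) and TPM1-203 (-0.049). Among other named genes MYH1 (0.53), MYH2 (0.62), the higher MYH3 gene (0.28), TEAD1 (0.59), ADIPOQ (-0.15), LPL (0.204) and TNNC1 (-0.23) did too. So did differences in share, in percentage points, of TPM1-201 (0.515), TPM1-203 (-0.77) and MYL1-201 (-2.3). The difference in the members' share of all counts, -0.188 points with all birds, turned to 0.181. It was also above 0 without high shear force bird 2 (0.244) and without low shear force bird 3 (0.0674). MYL1 was 0.014 under upper-quartile scaling, and MYL1-201 was -0.0064 under RLE scaling and in DESeq2. With 1 bird left out, the range crossed 0 in ACTA1 (-0.25 to 0.0086), TPM1 (-0.030 to 0.15), TNNT3 (-0.15 to 0.037), TNNI2 (-0.012 to 0.12), MYL1 (-0.054 to 0.063), ACTA1-201 (-0.25 to 0.035), MYL1-201 (-0.061 to 0.11), MYL1-202 (-0.21 to 0.035), TNNI2-201 (-0.012 to 0.14) and TNNT3-201 (-0.074 to 0.17), and in the MYL1-201 share (-0.68 to 2.56 points). The fold changes of members and their transcripts lay within the 95% interval of the same gene or transcript with all 8 birds. Of the other genes listed here, MYH1 and TEAD1 lay outside their intervals, -2.215 to 0.31 and -1.92 to 0.22, and the rest within. The cause was not tested. TNNC2 and PVALB kept their sign in every alternative run. With 4 birds a group, an exact test cannot go below 0.0286, and the low counts of PVALB limit its precision.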

Other observations

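The 7 members did not share a single profile over the 8 birds, so a mean over them joins unlike ones. Pearson r between pairs of members ran from -0.348 (TNNC2 and PVALB) to 0.903 (TPM1 and TNNI2). TNNT3 and TNNC2 stood at 0.0058, and PVALB was positive with ACTA1 alone (0.418). Over the 8 birds, the genes whose log2 CPM ran most like the 7 members on average, among 7612 named genes with a mean log2 CPM of at least 1, were KCNJ11, DOK5, COPS7A, PRKAG2 and ALDH4A1, with mean Pearson r of 0.657, 0.655, 0.638, 0.634 and 0.631. The closest single genes were KLHL23 for ACTA1 (r = 0.933), KCNJ11 for TPM1 (0.961), AUH for TNNT3 (0.968), CLN6 for TNNI2 (0.991), ADM for TNNC2 (0.939), PRDM4 for MYL1 (0.956) and NUPL1 for PVALB (0.955). These r values are the highest of many, share the library scaling, and are given as a description over 8 birds with no p. ADM, which encodes the peptide adrenomedullin, had a log2 fold change of 0.99 with an unadjusted edgeR p of 0.00574. Of all genes, 12.8% had an unadjusted p under 0.05 and 0 passed after adjustment, ADM included. The other 10 of these genes had log2 fold changes between -0.24 and 0.17.

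The interval between TNNT3 and TNNI2 holds 2 genes of the authors' table. C11ORF89 had 1720 to 2088 CPM in the high and 1799.5 to 2532 CPM in the low shear force birds. LSP1, a leukocyte protein, had 59.6 to 140 CPM in the high and 48.1 to 83.8 CPM in the low shear force birds.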
